A study of Mus musculus with 8 samples.

Results

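The genes described are the secreted and membrane-type matrix metalloproteinases (MMPs) *Mmp2*, *Mmp9*, *Mmp11*, *Mmp14* and *Mmp16*, the tissue inhibitors of metalloproteinases (TIMPs) *Timp1*, *Timp2* and *Timp3*, and *Reck*, a membrane-anchored inhibitor of the same enzymes. They were chosen by name from a list of 10, of which 9 were analysed among the 12148 genes of the expression table, and *Mmp13* was not analysed here. The study asked how loss of the type II TGF-beta receptor from tooth mesenchyme alters developing molars. RNA-Seq was done on dental pulp (DP) of first molars at postnatal day 7, in 4 Osterix-Cre control libraries (numbered 49 to 52) and 4 libraries from Osterix-Cre:Tgfbr2f/f mice, called Tgfbr2cko (numbered 53 to 56), all of strain C57BL/6J. Both genotypes carry the Cre transgene, and the deletion is limited to cells in which the Osterix promoter is or was active, the odontoblasts and DP mesenchyme. Each sample pooled pulp of left and right molars, separated from mineralized tissue and enamel organ.

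MMPs are zinc-dependent proteases that cut collagens, other matrix proteins and cell-surface proteins, and most are made as inactive zymogens. TIMPs bind the active site of the enzymes and block them, and the membrane-type enzyme encoded by *Mmp14* uses *Timp2* as a bridge to bind and activate the zymogen of *Mmp2*. In teeth, these enzymes and inhibitors are known from the remodelling of the dentin matrix and the pulp, and TGF-beta is a textbook regulator of several of their genes.

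None of the 9 genes was altered between the genotypes under the rule of at least 1.5-fold with p under 0.05, a rule that 5.77% of all 12148 genes passed. The mutant mean was higher for 7 genes and lower for 2, *Timp1* and *Timp3*, while 48.8% of all genes had a log2 fold change above 0. The median log2 fold change of the 9 genes was 0.18, compared with -0.01 over all genes. Only *Timp3* had an unadjusted p under 0.05 by limma, as did 8.38% of all genes, and 0 of the 9 had an adjusted p under 0.05 (0.947% of all genes) or passed at 2-fold (2.11% of all genes). In the deposited values, the libraries of the genotypes fell into separate ranges for 0 of the 9 genes, compared with 5.27% of all genes.

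Expression is given as log2 CPM (read counts scaled to a common library total), as the values were deposited, and fold changes are Tgfbr2cko minus Osterix-Cre on that scale. Adjusted p-values are from limma with Benjamini-Hochberg adjustment over all 12148 genes. The exact p-values are from two-sided permutation tests over the 70 arrangements of 4 libraries against 4, which can give no p below 0.0286. The labels do not say whether the libraries of a genotype came from separate animals, so p-values measure only the spread between these libraries. In a bulk tissue, fewer cells of a type and less RNA per cell cannot be told apart.

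The libraries held 9511517 to 10227345 counted reads in the controls and 8682872 to 13539670 in the mutants. *Tgfbr2*, the deleted gene, had log2 CPM of 7.16, 7.62, 7.64 and 7.52 in control libraries and 7.02, 7.00, 7.16 and 7.61 in mutant libraries. The library labelled Tgfbr2cko 56 lay within the control range. Tgfbr2cko 55 (7.160) also did, just above the lowest control, Osterix-Cre 49 (7.157). The log2 fold change of *Tgfbr2* was -0.29 (SE 0.17, limma adjusted p = 0.79, exact p = 0.143). A count over all exons does not separate intact from recombined transcripts. *Amelx* and *Ambn*, which encode enamel matrix proteins of ameloblasts, held 18.45% of counted reads in the library labelled Tgfbr2cko 56, compared with 0.326% to 2.74% in the other 7. Of the 6 ameloblast markers, all analysed, only *Klk4*, a protease of maturing enamel, was altered, and it fell (log2 fold change -2.71, limma adjusted p = 0.000136), with 5.39 in the library labelled Tgfbr2cko 56 and 7.26 to 7.78 in the controls. Of the epithelial markers, 5 of 6 were analysed and 2, the cadherin genes *Cdh1* (1.15, limma adjusted p = 0.527) and *Cdh3* (1.23, limma adjusted p = 0.544), rose, as did 2.12% of all genes, and the 5 summed to 234.8 to 365.3 CPM in the controls and 241.9 to 2806 CPM in the mutants. Neither cadherin gene was called without the library labelled Tgfbr2cko 56, at 0.55 and 0.62. All 6 dental mesenchyme markers and all 7 odontoblast markers were present in the table, with summed levels of at least 4684 and 6401 CPM in every library. Results are therefore also given without the library labelled Tgfbr2cko 56.

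**Figure D1:**
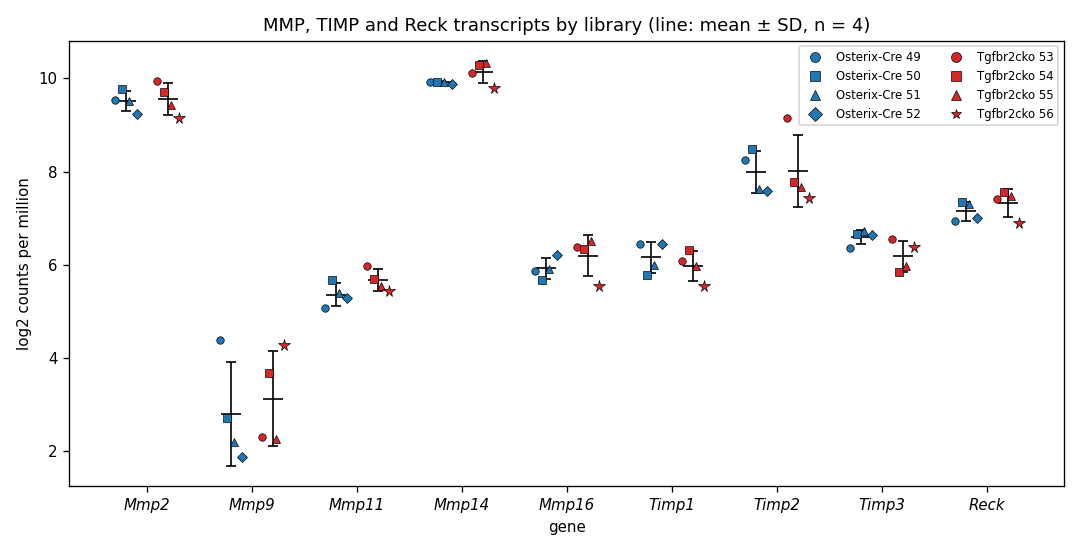
The plot shows log2 CPM of each gene (y axis) in the 4 Osterix-Cre libraries (blue) and the 4 Tgfbr2cko libraries (red), 1 point a library, with a line and bars for the mean ± SD (n = 4). The ranges of the genotypes overlap for all 9 genes, and *Mmp9* has the widest spread, from 1.87 to 4.38.

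The sequences before 4 of the genes are shown. *Timp3* is the gene with an unadjusted p under 0.05. *Mmp14* and *Reck* varied together across libraries, a relation that was not compared with that of pairs of all genes. *Timp1*, which the data do not single out, is known from earlier work as a gene induced by TGF-beta. The sequences are RefSeq promoter windows on GRCm38.p6, written 5′ to 3′ on the gene's strand, and cover up to 250 bases before the RefSeq start. Capitals mark GC boxes, the letters GGGCGG on either strand. The *Timp3* window is shown without its last 40 bases, which GENCODE counts as part of the gene.
Timp3, chr10:86300162-86300371, plus strand: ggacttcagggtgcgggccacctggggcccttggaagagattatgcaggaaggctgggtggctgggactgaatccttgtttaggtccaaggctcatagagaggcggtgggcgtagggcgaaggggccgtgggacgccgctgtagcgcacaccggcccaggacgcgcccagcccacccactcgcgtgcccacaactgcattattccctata
Mmp14, chr14:54431348-54431597, plus strand: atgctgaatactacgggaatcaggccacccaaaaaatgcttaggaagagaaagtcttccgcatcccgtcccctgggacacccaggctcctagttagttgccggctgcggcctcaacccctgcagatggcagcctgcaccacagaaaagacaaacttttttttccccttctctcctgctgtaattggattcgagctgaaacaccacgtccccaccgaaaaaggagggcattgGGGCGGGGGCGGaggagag
Reck, chr4:43875280-43875529, plus strand: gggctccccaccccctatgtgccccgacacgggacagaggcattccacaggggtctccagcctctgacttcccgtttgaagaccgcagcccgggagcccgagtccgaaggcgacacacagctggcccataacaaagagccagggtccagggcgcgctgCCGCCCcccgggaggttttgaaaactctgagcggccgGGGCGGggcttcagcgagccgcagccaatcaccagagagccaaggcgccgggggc
Timp1, chrX:20869916-20870165, plus strand: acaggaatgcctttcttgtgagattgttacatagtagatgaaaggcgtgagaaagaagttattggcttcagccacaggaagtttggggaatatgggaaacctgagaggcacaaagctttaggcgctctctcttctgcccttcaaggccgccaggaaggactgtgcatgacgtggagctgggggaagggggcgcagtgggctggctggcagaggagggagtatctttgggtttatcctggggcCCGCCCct

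Windows were found for 6 of the 9 genes, also *Timp2* and *Mmp11*, and none was found for *Mmp2*, *Mmp9* and *Mmp16*. All 250 bases of the *Timp2* and *Mmp11* windows, which are not shown, lie within the gene as GENCODE counts it. Searched on both strands, an AP-1 site (TGANTCA) was in 0 of the 6 windows and in 6.75% of the windows of all 32851 promoters. The palindrome of the SMAD factors (GTCTAGAC) was also in 0 of the 6, and in 0.167% of all promoters. A GC box was in all 6 windows and in 32.7% of all promoters, with 2 matches in each of *Mmp11*, *Mmp14* and *Reck* and 1 in each of the others. In *Mmp14* these matches lay next to each other, 19 to 14 and 13 to 8 bases before the start. The *Timp3* match lay 15 to 10 bases before the RefSeq start, in the bases not shown. A match is a run of letters, not a measured binding site.

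*Mmp2*, on chromosome 8 (ENSMUSG00000031740.8, 92827291 to 92853420, plus strand), encodes gelatinase A, which cuts denatured collagen and basement membrane. Its log2 CPM was 9.54, 9.77, 9.52 and 9.25 in the Osterix-Cre libraries 49 to 52 and 9.95, 9.71, 9.43 and 9.16 in the Tgfbr2cko libraries 53 to 56, from 5975 to 10268 reads. The highest and the lowest library were both mutants, and the control range lay inside the mutant range. The means were 9.52 ± 0.21 and 9.56 ± 0.34 (SD, n = 4), a log2 fold change of 0.04 (SE 0.20, limma adjusted p = 0.998, exact p = 0.857). The interval of the fold was 0.764 to 1.39 (95%). Its sign turned negative in 4 of 17 alternative settings, with values between -0.09 and 0.19. Without the library labelled Tgfbr2cko 56 the log2 fold change was 0.18 (limma unadjusted p = 0.344).

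*Mmp9*, on chromosome 2 (ENSMUSG00000017737.2, 164940780 to 164955850, plus strand), encodes gelatinase B, an enzyme known from osteoclasts and neutrophils. It was the least abundant of the 9 genes, with 37 to 263 reads. Log2 CPM was 4.38, 2.72, 2.19 and 1.87 in control libraries and 2.29, 3.67, 2.26 and 4.28 in mutant libraries. Osterix-Cre 49, the library labelled Tgfbr2cko 56 and Tgfbr2cko 54 were high, the other 5 libraries were low, and each genotype thus held high and low libraries. The difference of 0.34 (SE 0.55, limma adjusted p = 0.995, exact p = 0.743) was smaller than the SD within the controls (1.11) or the mutants (1.01), and the fold had an interval of 0.556 to 2.87. Without the library labelled Tgfbr2cko 56, the log2 fold change was -0.05.

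The libraries with high *Mmp9* were also those with high *Acp5*, the tartrate-resistant acid phosphatase of osteoclasts, a comparison chosen after the values were seen. *Acp5* had log2 CPM of 4.30, 3.69, 3.96 and 3.21 in control libraries and 3.40, 4.51, 3.71 and 4.56 in mutant libraries. Of the 10 osteoclast markers listed, 5 were analysed (*Acp5*, *Ctsk*, *Itgb3*, *Nfatc1* and *Tnfrsf11a*). The other 4 did not share this order of libraries. *Ctsk*, which encodes cathepsin K, was lowest in the library labelled Tgfbr2cko 56 (7.52) and Osterix-Cre 49 (7.59), and *Itgb3* (2.48) and *Nfatc1* (4.11) were lowest in the library labelled Tgfbr2cko 56. None of the 5 was altered by genotype, and their summed level was 256.2 to 332.1 CPM in the controls and 236.9 to 471.9 CPM in the mutants. Osterix-Cre 49 and the library labelled Tgfbr2cko 56 also had raised *Amelx* and *Ambn* (2.14% and 18.45% of reads), while Tgfbr2cko 54 had 0.347%, and Tgfbr2cko 55, with low *Mmp9*, had 2.74%. Of 10 neutrophil markers, only *S100a8* was analysed, and it fell (log2 fold change -1.75, limma unadjusted p = 0.0295, adjusted p = 0.46, and -2.53 without the library labelled Tgfbr2cko 56), at 1.55 to 6.32 CPM in the controls and 0.346 to 5.69 CPM in the mutants. The part of clast cells, neutrophils or enamel organ RNA in the *Mmp9* values was not tested.

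*Mmp11*, on chromosome 10 (ENSMUSG00000000901.16, 75923222 to 75936496, minus strand), encodes stromelysin-3, an enzyme of stromal cells that is activated inside the cell by furin. Log2 CPM was 5.08, 5.67, 5.396 and 5.28 in control libraries and 5.98, 5.70, 5.54 and 5.44 in mutant libraries. All 4 mutant libraries lay above 3 of the controls, but Osterix-Cre 50 lay above Tgfbr2cko 55 and 56. The mean was higher in the mutants by a log2 fold change of 0.31 (SE 0.17, limma unadjusted p = 0.0983, adjusted p = 0.743, exact p = 0.114), a fold of 1.24 with an interval of 0.955 to 1.61. Its sign was positive in all 17 alternatives (0.21 to 0.44), in 5 of which the unadjusted p was under 0.05. The gene shares 155 bases of exon, 5.58% of its length, with *Chchd10* on the other strand, and reads there cannot be assigned without strand information.

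*Mmp14*, on chromosome 14 (ENSMUSG00000000957.9, 54431612 to 54445364, plus strand), encodes MT1-MMP, a collagenase of the cell surface. It had log2 CPM of 9.92, 9.93, 9.92 and 9.88 in control libraries and 10.13, 10.29, 10.34 and 9.81 in mutant libraries, from 9236 to 15356 reads. The controls were nearly equal, 3 mutants lay above all of them, and the library labelled Tgfbr2cko 56 lay below all of them. The means were 9.91 ± 0.02 and 10.14 ± 0.24 (SD, n = 4). The log2 fold change was 0.22 (SE 0.18, limma unadjusted p = 0.224, adjusted p = 0.903, exact p = 0.143), a fold of 1.17 with an interval of 0.898 to 1.52. Without the library labelled Tgfbr2cko 56, the log2 fold change was 0.34 (limma unadjusted p = 0.0453). After median centring of all 8 libraries, the ranges of the genotypes no longer overlapped (exact permutation p = 0.0286). The log2 fold change was then 0.22, with a limma unadjusted p of 0.13.

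*Mmp16*, on chromosome 4 (ENSMUSG00000028226.15, 17852893 to 18119145, plus strand), encodes MT3-MMP, another membrane-type enzyme. Its log2 CPM was 5.88, 5.68, 5.92 and 6.22 in control libraries and 6.38, 6.34, 6.51 and 5.54 in mutant libraries. On the log2 CPM scale, as for *Mmp14*, 3 mutants lay above every control and the library labelled Tgfbr2cko 56 lay below every control. The genotypes differed by a log2 fold change of 0.27 (SE 0.21, limma adjusted p = 0.896, exact p = 0.343), a fold of 1.21 with an interval of 0.883 to 1.65. Without the library labelled Tgfbr2cko 56, it was 0.49 (limma unadjusted p = 0.0072), still under 1.5-fold.

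*Timp1*, on chromosome X (ENSMUSG00000001131.11, 20870166 to 20874735, plus strand), encodes a soluble inhibitor that binds the zymogen of *Mmp9*. Log2 CPM was 6.44, 5.78, 5.99 and 6.44 in control libraries and 6.09, 6.31, 5.97 and 5.54 in mutant libraries. The 2 highest libraries were controls and the lowest was the library labelled Tgfbr2cko 56, with the other mutants inside the control range. The log2 fold change was -0.19 (SE 0.20, limma adjusted p = 0.964, exact p = 0.457), a fold of 0.878 with an interval of 0.65 to 1.18. It was negative in all 17 alternatives, from -0.32 to -0.03. Without the library labelled Tgfbr2cko 56 it was -0.04 (limma unadjusted p = 0.818). The gene lies inside *Syn1*, which runs on the other strand, and shares no exon base with it.

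*Timp2*, on chromosome 11 (ENSMUSG00000017466.9, 118301069 to 118355740, minus strand), encodes the inhibitor that also takes part in the activation of the *Mmp2* zymogen. Its log2 CPM was 8.26, 8.48, 7.63 and 7.59 in control libraries and 9.16, 7.78, 7.67 and 7.43 in mutant libraries. Tgfbr2cko 53 stood above all other libraries, and the remaining mutants lay at or near the lower controls. The log2 fold change was 0.02 (SE 0.33, limma adjusted p = 0.998, exact p = 0.971), with a wide interval of the fold, 0.619 to 1.66. Without Tgfbr2cko 53 it was -0.36, with an unadjusted limma p of 0.123.

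*Timp3*, on chromosome 10 (ENSMUSG00000020044.13, 86300372 to 86349506, plus strand), encodes the inhibitor that stays bound to the extracellular matrix and that also blocks ADAM17 and aggrecanases. Log2 CPM was 6.37, 6.66, 6.72 and 6.64 in control libraries and 6.54, 5.84, 5.98 and 6.37 in mutant libraries, from 549 to 1123 reads. Tgfbr2cko 54 and 55 lay below all controls, whereas Tgfbr2cko 53 and the library labelled Tgfbr2cko 56 lay within the control range. The means were 6.60 ± 0.16 and 6.18 ± 0.33 (SD, n = 4). The log2 fold change was -0.41 (SE 0.17, limma unadjusted p = 0.0331, adjusted p = 0.494, exact p = 0.0857), a fold of 0.751 with an interval of 0.579 to 0.974, so that it did not reach 1.5-fold.

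The *Timp3* difference was negative in all 17 alternatives, from -0.57 to -0.30, and its unadjusted p was under 0.05 in 9 of them. Without Osterix-Cre 50, 51 or 52 it was -0.39, -0.37 or -0.40, and without Tgfbr2cko 54 or 55 it was -0.30 or -0.35, each with an unadjusted limma p over 0.05 (at most 0.115). The exons of *Timp3* share 1733 bases, 21.28% of their length, with *Syn3* on the other strand, which was not analysed here, and reads of the 2 genes there cannot be told apart without strand information.

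Markers of several cell types differed beside *Timp3*, and 3.65% of all genes fell by the 1.5-fold rule. Of the 6 pericyte and smooth muscle markers, 4 were analysed and 2 fell, *Rgs5* (-0.83, limma adjusted p = 0.0212) and *Pdgfrb* (-0.69, limma adjusted p = 0.282), while *Cspg4* was at 0.26 and *Acta2* at -0.54. The summed level of the 4 was 324.7 to 422.1 CPM in the controls and 224.6 to 298.1 CPM in the mutants. Of the 6 endothelial markers, all analysed, 1, *Tek* (-0.64, limma adjusted p = 0.124), fell, with a sum of 237.4 to 336.0 CPM in the controls and 208.6 to 278.4 CPM in the mutants. Of the 8 macrophage markers, all analysed, 2 fell, *Mrc1* (-0.99, limma adjusted p = 0.118) and *Cd68* (-0.70, limma adjusted p = 0.564), and the sum was 868.3 to 1310 CPM in the controls and 545.9 to 1157 CPM in the mutants. Of the 7 odontoblast markers, 3 fell, *Nes* (-0.81), *Wnt10a* (-0.68) and *Bglap* (-0.72), and 1, *Ibsp* (1.24), rose (limma adjusted p between 0.217 and 0.408), with a sum of 8877 to 22466 CPM in the controls and 6401 to 13482 CPM in the mutants. When the library labelled Tgfbr2cko 56 was left out, *Pdgfrb* (-0.48), *Cd68* (-0.37) and *Bglap* (-0.56) were no longer called and *Ibsp* was at 0.77, while *Rgs5* (-0.77), *Tek* (-0.68), *Mrc1* (-0.79), *Nes* (-0.68) and *Wnt10a* (-0.78) kept their calls. The part of these cells in the *Timp3* values was not tested. Among 10313 genes with a mean log2 CPM of at least 3, those with values most like *Timp3* over the 8 libraries included *Ewsr1* and *Sp2*, with Pearson correlations of 0.902 and 0.883.

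*Reck*, on chromosome 4 (ENSMUSG00000028476.13, 43875530 to 43944806, plus strand), encodes a glycolipid-anchored protein that restrains *Mmp2*, *Mmp9* and *Mmp14* products and also acts as a Wnt7 co-receptor. Log2 CPM was 6.93, 7.34, 7.31 and 7.01 in control libraries and 7.41, 7.55, 7.48 and 6.89 in mutant libraries. On the log2 CPM scale, the pattern was that of *Mmp14* and *Mmp16*. Above every control lay 3 mutants, and the library labelled Tgfbr2cko 56 lay below every control. In that library, *Amelx* and *Ambn* held 18.45% of reads, which count in the total used for scaling. Values without these reads in the totals are given below. The genotypes differed by a log2 fold change of 0.18 (SE 0.17, limma adjusted p = 0.945, exact p = 0.286), a fold of 1.14 with an interval of 0.878 to 1.47. Without the library labelled Tgfbr2cko 56 it was 0.33 (limma unadjusted p = 0.0375).

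**Figure D2:**
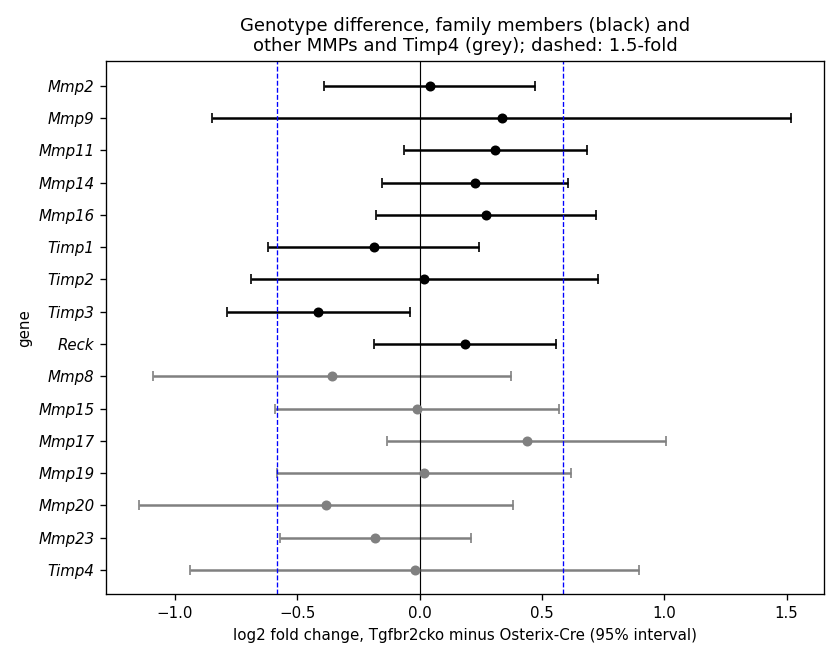
Log2 fold change between the genotypes (x axis, with 95% intervals from limma) is plotted for the 9 genes in black and for the other MMPs and *Timp4* in grey, with dashed lines at 1.5-fold. Only the interval of *Timp3* excludes 0, at -0.79 to -0.04, and that of *Mmp9* is the widest among the 9, at -0.85 to 1.52.

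The library labelled Tgfbr2cko 56 thus bore on several of the genes at once. Without it, 5 of the 9 had an unadjusted limma p under 0.05, compared with 9.58% of all genes, namely *Mmp11* (0.38), *Mmp14* (0.34), *Mmp16* (0.49) and *Reck* (0.33) with higher means and *Timp3* (-0.48) with a lower one. The median log2 fold change of all genes was then 0.07, and none of the 9 genes reached 1.5-fold. With the enamel matrix genes as a covariate over all 8 libraries, *Mmp11* (0.44), *Reck* (0.34) and *Timp3* (-0.42) had an unadjusted p under 0.05. When the reads of *Amelx* and *Ambn* were left out of the library totals, *Mmp11* (0.38) and *Mmp14* (0.30) did by limma, and *Timp3* (-0.34, limma unadjusted p = 0.089) did not. *Mmp16* was then at 0.34 and *Reck* at 0.26 (limma unadjusted p = 0.0684 and 0.0803). The direction of *Mmp11*, *Mmp14*, *Mmp16*, *Timp1*, *Timp3* and *Reck* was the same in all 17 alternatives, and that of *Mmp2*, *Mmp9* and *Timp2* was not.

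**Figure D3:**
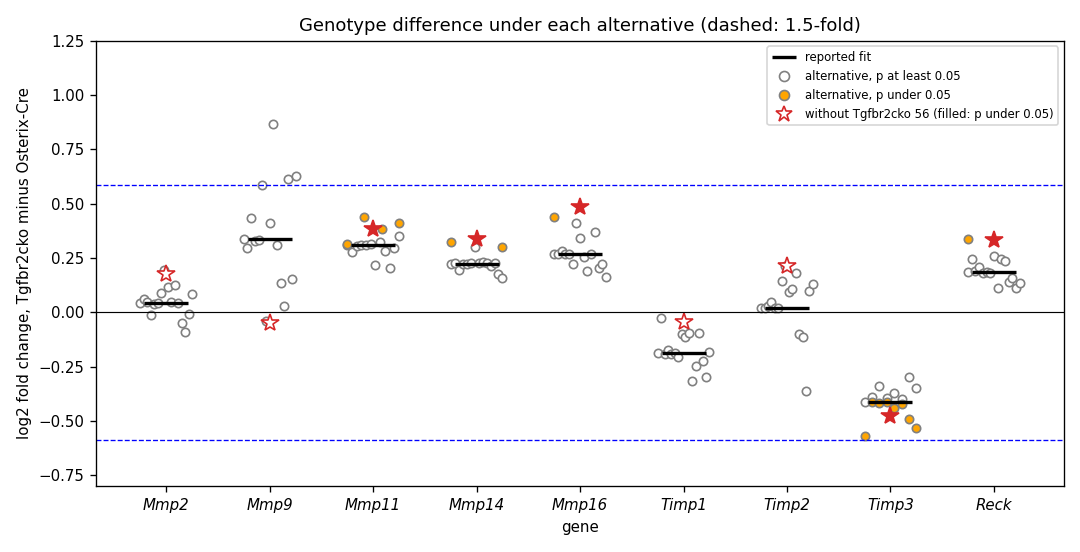
Each gene's log2 fold change (y axis) is shown as reported (black bar), under each alternative (circles, orange where the unadjusted p was under 0.05) and without the library labelled Tgfbr2cko 56 (stars, filled where it was under 0.05). The stars of *Mmp11*, *Mmp14*, *Mmp16*, *Reck* and *Timp3* are filled and lie between the dashed lines at 1.5-fold.

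To compare levels between genes, reads were divided by exon length, as RPKM (CPM per kilobase of exon). Among the 9 genes, the highest mean level in the controls was that of *Mmp2*, 219.6 ± 32.4 RPKM (SD, n = 4), followed by *Mmp14* with 162.0 ± 2.45 RPKM. The inhibitors *Timp1* (82.3 ± 18.5 RPKM) and *Timp2* (67.7 ± 20.8 RPKM) came next and did not differ beyond their spread. *Reck* had a mean level of 29.9 ± 4.22 RPKM.

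*Mmp11* (14.9 ± 2.57 RPKM) and *Timp3* (11.9 ± 1.24 RPKM) had overlapping control ranges, although *Mmp11* was the higher in all 8 libraries. *Mmp16* (7.06 ± 1.12 RPKM) and *Mmp9* (2.50 ± 2.26 RPKM) were lowest. In the mutants, *Mmp16* (8.70 ± 2.28 RPKM) and *Timp3* (9.10 ± 2.07 RPKM) had similar levels, and *Timp3* was the higher in 2 of the 4 libraries, compared with all 4 controls. By group means the gelatinase genes stood at opposite ends of the order, although *Mmp14* exceeded *Mmp2* in Tgfbr2cko 55 and *Mmp9* exceeded *Mmp16* in the library labelled Tgfbr2cko 56.

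**Figure D4:**
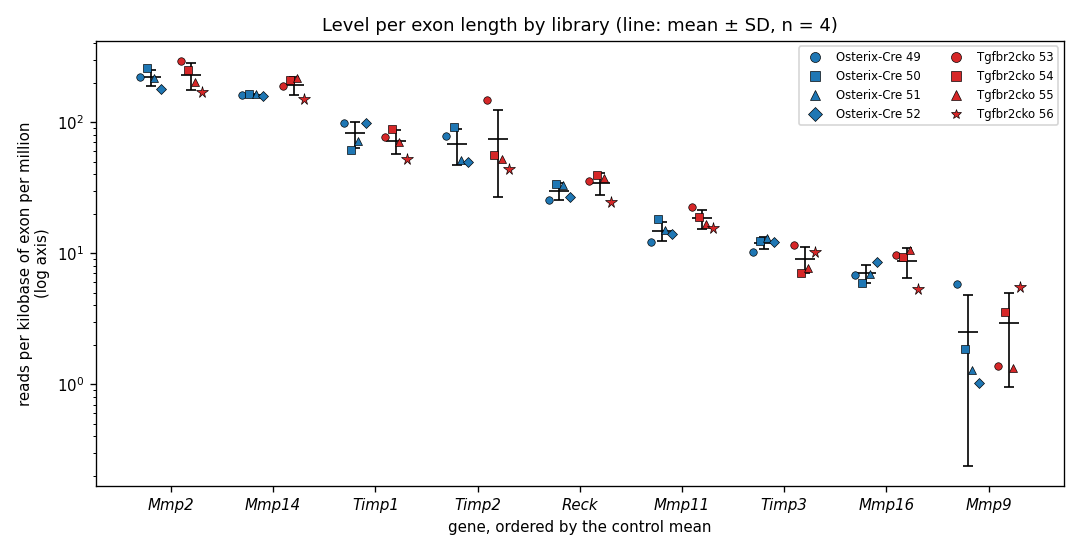
Levels in RPKM (y axis, log scale) are shown for the 9 genes, ordered by the control mean, in the 4 Osterix-Cre (blue) and 4 Tgfbr2cko (red) libraries, with lines and bars for mean ± SD. The order runs from *Mmp2* at 219.6 to *Mmp9* at 2.50 RPKM in the controls.

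Among the 11 MMP genes analysed, *Mmp2* and *Mmp14* made up 23.1% to 40.0% and 20.3% to 25.3% of the summed RPKM in the controls, and 23.6% to 44.3% and 20.9% to 29.8% in the mutants. *Mmp20*, the enamel protease enamelysin that odontoblasts also make, had a higher control mean than any of the 9 genes (240.4 RPKM), with shares of 21.5% to 43.2% in the controls and 13.1% to 45.3% in the mutants. Among the 4 TIMP genes, *Timp1* made up 37.1% to 61.2% and *Timp2* 30.9% to 55.1% in the controls. *Timp4* had 17 to 50 reads.

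The summed RPKM of the 11 MMPs was 3.76, 3.89, 5.40 and 4.87 times that of the 4 TIMPs in control libraries and 2.81, 4.76, 5.57 and 6.71 times in mutant libraries. The lowest and the highest ratio were both in mutants, in Tgfbr2cko 53 and in the library labelled Tgfbr2cko 56. These sums concern RNA and do not measure enzyme activity.

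Within a library, the difference of 2 log2 values does not depend on the library's scaling, and it was taken for 3 known pairs of protease and inhibitor on the log2 CPM scale. *Mmp2* minus *Timp2* was 1.29, 1.29, 1.88 and 1.66 in control libraries and 0.79, 1.93, 1.75 and 1.73 in mutant libraries. The genotypes overlapped, with Tgfbr2cko 53 lowest, and the means were 1.53 ± 0.29 and 1.55 ± 0.51 (difference 0.02, exact p = 0.943). *Mmp14* minus *Timp2* was 1.66, 1.45, 2.29 and 2.29 in control libraries and 0.97, 2.51, 2.66 and 2.37 in mutant libraries.

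For this pair, 3 mutants lay above every control and Tgfbr2cko 53 lay below every control, and the means were 1.92 ± 0.43 and 2.13 ± 0.78 (difference 0.21, exact p = 0.714). Without Tgfbr2cko 53 the difference was 0.59 (exact permutation p = 0.114). *Mmp9* minus *Timp1* was -2.07, -3.06, -3.80 and -4.57 in control libraries and -3.80, -2.64, -3.71 and -1.26 in mutant libraries. It spread widely in both genotypes, with means of -3.37 ± 1.07 and -2.85 ± 1.18 (difference 0.52, exact p = 0.486). The adjusted p over the 3 pairs was 0.943 for each (exact permutation tests with Benjamini-Hochberg adjustment). Without the library labelled Tgfbr2cko 56 the *Mmp9* minus *Timp1* difference was -0.01.

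**Figure D5:**
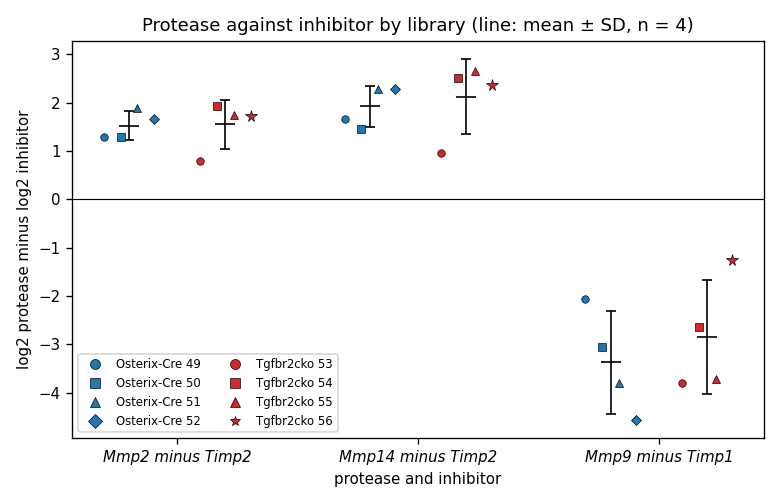
The difference of log2 CPM between a protease and its inhibitor (y axis) is shown by library for 3 pairs, with lines and bars for mean ± SD (n = 4). The mutant mean exceeds the control mean by 0.02, 0.21 and 0.52, less than the SD within either genotype.

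Some of the genes varied together across the 8 libraries, a comparison added after the values were seen. Of the 36 pairs among the 9 genes, 5 had an unadjusted exact permutation p under 0.05 for Pearson's r, and 0 passed Benjamini-Hochberg adjustment (smallest adjusted p = 0.158). The share over pairs of all genes was not computed. Whether the 9 genes vary together more than other genes do was therefore not tested. *Mmp2* and *Timp2* had r = 0.85 (exact permutation p = 0.00439, adjusted p = 0.158) and rho = 0.95 (exact permutation p = 0.00114, adjusted p = 0.0205). Leaving out the 2 libraries farthest from the *Mmp2* median gave r = 0.667, leaving out those farthest from the *Timp2* median gave r = 0.595, and r within the genotypes was 0.854.

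*Mmp14* and *Reck* had r = 0.84 (exact permutation p = 0.0157, adjusted p = 0.189) and rho = 0.95 (exact permutation p = 0.00114, adjusted p = 0.0205). Leaving out the 2 libraries farthest from the *Mmp14* median gave r = 0.754 (0.822 for *Reck*), and r within the genotypes was 0.826. For *Mmp14* and *Mmp16* r was 0.83 (exact permutation p = 0.0132, adjusted p = 0.189) and rho was 0.76 (exact permutation p = 0.0368, adjusted p = 0.33), with r = 0.731 or 0.669 without the 2 farthest libraries. *Mmp14* and *Timp3* varied in opposite directions, with r = -0.76 (exact permutation p = 0.0305, adjusted p = 0.275) and rho = -0.40 (exact permutation p = 0.327, adjusted p = 0.735). This relation rested on the 2 farthest libraries, without which r was 0.22. *Mmp11* and *Reck*, the remaining pair, had r = 0.72 (exact permutation p = 0.0431, adjusted p = 0.31) and rho = 0.74 (exact permutation p = 0.0458, adjusted p = 0.33), with r = 0.711 or 0.644 without the 2 farthest libraries. Values of a library share its scaling, so that a library with many reads on a few genes moves all of its other values together.

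The other genes of the pathway were taken from 7 lists of 111 genes, of which 82 were analysed. Of these, 4 rose and 4 fell by the 1.5-fold rule, compared with 2.12% and 3.65% of all genes. The other MMPs and *Timp4* held no altered gene among 7 of 18 analysed, with a median log2 fold change of -0.02. Their values were -0.36 for *Mmp8*, -0.01 for *Mmp15*, 0.44 for *Mmp17*, 0.02 for *Mmp19*, -0.38 for *Mmp20*, -0.18 for *Mmp23* and -0.02 for *Timp4*. The inhibitors and clearance receptors of MMPs and plasminogen activators also held none, among 10 of 15 analysed, with a median of -0.15.

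Of the ADAM metalloproteinases, relatives of the MMPs that shed cell-surface proteins, 10 of 11 were analysed, 1 rose and 1 fell, and the median was 0.08. *Adam19* ran from 3.94 to 4.08 in the controls and from 3.06 to 3.52 in the mutants, with no overlap (log2 fold change -0.66, SE 0.19, limma unadjusted p = 0.00398, adjusted p = 0.161). Without Tgfbr2cko 55 it was -0.57 and missed 1.5-fold. *Adam23*, a non-catalytic member, was at 1.501-fold (log2 fold change 0.59, SE 0.25, limma unadjusted p = 0.0349, adjusted p = 0.511). Its call was kept in 8 of 17 alternatives. It was lost with voom weights (0.55, limma unadjusted p = 0.0619), after median centring and after averaging by title number (both 0.58), and without each library but Osterix-Cre 52 and the one labelled Tgfbr2cko 56, with 0.58, 0.58 and 0.56 without Osterix-Cre 49, 50 or 51 and 0.45, 0.51 and 0.53 without Tgfbr2cko 53, 54 or 55.

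Of the ADAMTS metalloproteinases, which include aggrecanases inhibited by the *Timp3* product, 14 of 19 were analysed and 1 fell, with a median of -0.05. *Adamts10*, a microfibril-associated protease, ran from 8.01 to 8.49 in the controls and from 7.10 to 7.94 in the mutants, with no overlap (log2 fold change -0.71, SE 0.19, limma unadjusted p = 0.00242, adjusted p = 0.123). Without the library labelled Tgfbr2cko 56, and also with the enamel gene covariate, it was -0.56 and missed 1.5-fold.

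Of the proteases and cofactors that activate MMPs, 11 of 14 were analysed and 2 rose, with a median of 0.04. *Cd44*, a hyaluronan receptor that anchors *Mmp9* and *Mmp14* products at the cell surface, was between 6.38 and 6.60 in the controls and between 6.66 and 7.86 in the mutants (log2 fold change 0.61, SE 0.22, limma unadjusted p = 0.0181, adjusted p = 0.363). Its highest library was that labelled Tgfbr2cko 56, without which the log2 fold change was 0.35, and without Osterix-Cre 51 it was 0.57. It also missed 1.5-fold with library weights (0.48) and with the enamel gene covariate (0.35). *Cldn1*, an epithelial tight-junction gene that can promote MMP activation, had 8.23 in the library labelled Tgfbr2cko 56 and at most 4.90 elsewhere (log2 fold change 2.05, SE 0.86, limma unadjusted p = 0.0327, adjusted p = 0.489). Without that library it was 0.96 and lost the call, as it did without Osterix-Cre 50 (1.74), Osterix-Cre 52 (1.997) or Tgfbr2cko 55 (2.06). It also lost the call without an intensity trend, with voom weights, after quantile normalization and after median centring (2.05 to 2.16), and kept it at 0.91 with the enamel gene covariate. The part of epithelial cells in these values was not tested.

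Of the matrix substrates, 17 of 18 were analysed and 2 fell, with a median of -0.13. *Col5a1* ran from 9.21 to 9.54 in the controls and from 8.65 to 8.80 in the mutants (log2 fold change -0.66, SE 0.15, limma unadjusted p = 0.000644, adjusted p = 0.0602), and its call held in all 17 alternatives. *Col1a2* ran from 13.83 to 15.09 in the controls and from 12.93 to 13.68 in the mutants (log2 fold change -1.22, SE 0.43, limma unadjusted p = 0.0139, adjusted p = 0.316), and its call was lost in 1 alternative, quantile normalization.

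Of the transcription factors known to drive MMP genes, 13 of 16 were analysed and 1 rose, with a median of -0.08. *Etv5*, an ETS factor downstream of FGF signaling, ran from 5.30 to 5.80 in the controls and from 5.97 to 6.98 in the mutants, with no overlap. Its log2 fold change was 1.02 (SE 0.21, limma unadjusted p = 0.000376, adjusted p = 0.0415), and its call held in all 17 alternatives.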

How the data were processed

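RNA from DP (RIN over 7) was preamplified from a low input and sequenced. Per the labels and the submitters' processing notes, the authors used fastp 0.21.0, HISAT2 2.1.0 and featureCounts of Subread 2.0.1 with GRCm38.p5, and strandedness is not given in the sources used here. The methods add that genes were kept by the CLEAR workflow and transformed with voom. The deposited values are log2 CPM, from the count plus 0.5, which the authors scaled to each library's total of counted reads. Whole reads were recovered by that formula, with a largest difference of 4.97e-14 on recomputing the values. One read was worth 0.0739 to 0.115 CPM, and intervals cover neither amplification nor sampling of animals.

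Identifiers were matched to GENCODE M21, on GRCm38, for 12144 of 12148 genes. Genotypes were compared on the deposited log2 values of all genes in R 4.3.3 with limma 3.58.1 (intensity trend, two-sided, no covariate), and single values by exact permutation tests in Python 3.11.15 with numpy 2.4.6 and pandas 2.3.3. The scripts were tested on simulated data. Figures used matplotlib 3.10.9. RPKM used the union of annotated exons. Members and lists were chosen with earlier results of these data known. Named are all members, *Tgfbr2*, list genes past p under 0.05 and 1.5-fold (at most 6 a list), markers where a list is reported, and the 3 genes most correlated with a member past p under 0.05, of which 1 is not reported here. Outside this rule, the values of the other MMPs and *Timp4* were also named. The alternatives were no intensity trend, library weights, voom weights, quantile normalization, median centring, a mean log2 value of at least 3, averaging libraries whose titles share a further, unexplained number (3 controls against 2 mutants), an enamel gene covariate and leaving out each library. Leaving *Amelx* and *Ambn* out of the totals was added after seeing the data.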

Additional observations from a re-analysis of the deposited data

Results flagged for a closer look

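In Tgfbr2cko 53, *Mmp14* minus *Timp2* was 0.97 on the log2 scale, whereas the other 3 Tgfbr2cko libraries had values between 2.37 and 2.66. The gap to the nearest of them was 0.830 of the range of the 4 libraries, just past Dixon's 95% critical value for 4 values. It was the only one of 24 groups of 4 libraries checked to pass, and chance alone passes about 1 in 20. In that library *Timp2* was at 9.16, the highest of all 8, and *Mmp14* was at 10.13.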

How the results depend on the processing

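The count of the 9 genes altered at 1.5-fold stayed at 0 in all 17 alternatives, at an adjusted p under 0.05 and at 2-fold, and the count of altered pathway genes, 8, ran from 6 to 12. The count of the 9 genes with an unadjusted p under 0.05, 1 as reported, was 0 without an intensity trend, 3 with library weights, 3 with the enamel gene covariate, 2 without *Amelx* and *Ambn* in the totals, and 0 to 5 with a library left out (0 without Osterix-Cre 51, Osterix-Cre 52, Tgfbr2cko 54 or Tgfbr2cko 55, and 5 without the library labelled Tgfbr2cko 56). The log2 fold changes of 3 genes turned sign. *Mmp2* was -0.014 after quantile normalization and ran from -0.088 to 0.18 with a library left out. *Mmp9* was -0.039 with the enamel gene covariate and ran from -0.050 to 0.86 with a library left out, and the filter on low values removed it. *Timp2* ran from -0.36 to 0.21 with a library left out. *Mmp2* minus *Timp2* was -0.058 with libraries of the same title number averaged and ran from -0.10 to 0.28 with a library left out, *Mmp14* minus *Timp2* from 0.03 to 0.59 and *Mmp9* minus *Timp1* from -0.0064 to 0.96. The cause of these shifts was not tested. No paired analysis was possible because the genotypes share no library number and only 1 of the unexplained title numbers. With 4 libraries a genotype, the 95% intervals of all but *Mmp2* and *Reck* do not exclude a change of 1.5-fold.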
